A study of Mus musculus with 28 samples.

Results

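Lrrc58 (ENSMUSG00000034158) is a mouse gene for a protein with leucine-rich repeats, and it was followed here through every sorted library of a study that aimed Cas9 at the microRNA miR-124 in the motor cortex. It is 1 gene of the 41549 in the count tables, found by its name in both tables, and it was selected on its counts in Cas9-positive nuclei, where it was higher with the g4 than with the empty vector. Its values in that comparison are therefore given as a description, without a test.

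Each of 7 mice, numbered 17 to 23 in the sample titles, received AAV-Cas9-miR-124-empty in the left and AAV-Cas9-miR-124-g4 in the right motor cortex. Both are adeno-associated virus (AAV) vectors for Cas9 with an HA tag, and no hemisphere without a Cas9 vector was analysed here. Vector and hemisphere coincide in every animal, so that an effect of the vector and one of the side cannot be told apart. Nuclei of tissue fixed with PFA were sorted by the HA tag. Those with the tag (HA-positive) are given as Cas9-positive in the labels and the rest as HA-negative. The 2 vectors and 2 fractions made 4 groups, each with 7 libraries, called here by vector and fraction. The labels give no age or strain, no promoter for Cas9, and no meaning for the name g4.

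MicroRNAs are short RNAs that guide Argonaute proteins to matching sites, mostly in the 3' untranslated region (3' UTR) of messenger RNAs, and lower the stability and translation of those messengers. Pairing of the bases next to the 5' end of the microRNA, its seed, does most of the work. miR-124 is among the most abundant microRNAs of neurons and holds down a broad set of messengers that neurons express little of. The LRRC58 protein has been described as a substrate receptor of a cullin-5 ubiquitin ligase that marks cysteine dioxygenase, the enzyme that starts cysteine breakdown, for degradation.

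The gene lies on the plus strand of chromosome 16, from 37868389 to 37888858 (GRCm38), in 4 exons. Its 1 annotated transcript is 8604 bases long, of which 107 are 5' UTR, 1101 are coding (366 codons and the stop) and 7396 are 3' UTR. The 3' UTR is thus 86% of the transcript, lies in exon 4 from 37881463 to 37888858, and is longer than those of 99% of the genes with an annotated 3' UTR. Matches of 3 kinds to the seed of miR-124 were searched on the strand of the messenger: the 8mer GTGCCTTA, the 7mer-m8 GTGCCTT and the 7mer-A1 TGCCTTA, with each position counted once. The Lrrc58 3' UTR held 1 8mer, 2 7mer-m8 and 2 7mer-A1 matches. The stretches around them are shown because miR-124 was the targeted microRNA, and capitals mark the matched bases (5' to 3', plus strand, GRCm38).
8mer, chr16:37882026-37882055: gatatgttataGTGCCTTAatcctagtaag
7mer-A1, chr16:37884060-37884089: tttaaatcttcTGCCTTAatacttcatttt
7mer-m8, chr16:37887004-37887033: tgagtttgtaaGTGCCTTtacctaaatgat
7mer-A1 and 7mer-m8, chr16:37888618-37888647: aatttTGCCTTAaacattGTGCCTTgtttt

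The matches were spread over the whole 3' UTR. The 8mer came first, at bases 575 to 582 counted from the base after the stop codon. A 7mer-A1 followed at 2609 to 2615 and a 7mer-m8 at 5553 to 5559, while the last 7mer-A1 and 7mer-m8, at 7161 to 7167 and 7174 to 7180, lay 6 bases apart near the end of the transcript. So many matches were rare. Of 20953 genes with an annotated 3' UTR, 4130 (19.7%) held at least 1 match of any kind, 565 (2.7%) held an 8mer, and 7 (0.0334%), Lrrc58 among them, held an 8mer and at least 5 matches in all. Length alone raises the number of matches, and among the 272 genes with a 3' UTR of at least 7000 bases the median was 1 match, 34 (12.5%) held an 8mer and 4 (1.47%) held an 8mer and at least 5 matches. Lrrc58 had 0.676 matches per kilobase against a median of 0.129 in those long 3' UTRs. A seed match is a run of letters and does not show that the microRNA binds there.

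**Figure D1:**
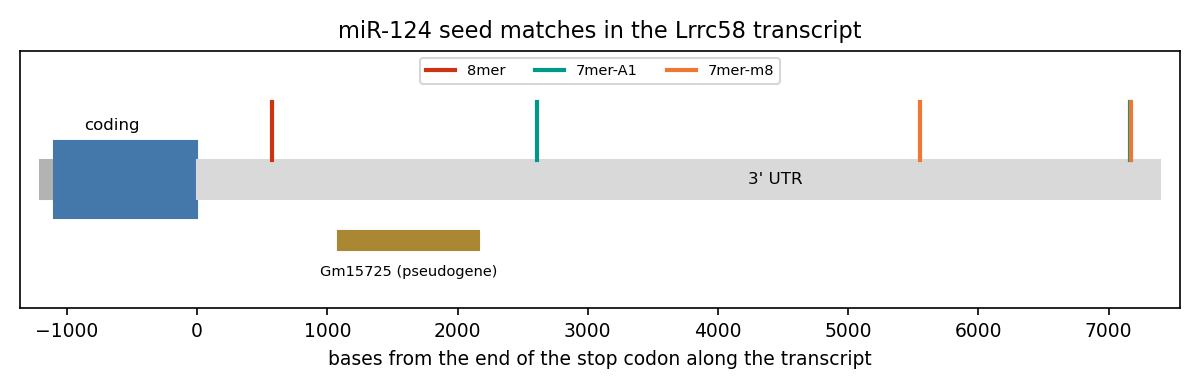
The Lrrc58 transcript drawn to scale in bases from the first base of the 3' UTR, with the 5 seed matches to miR-124 marked by kind. The 8mer is the match nearest the stop codon, and the last 7mer-A1 and 7mer-m8 sit 6 bases apart near the end of the 7396-base 3' UTR.

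A library held between 248612 and 902944 counts in all, and 20 to 204 of these counts per library fell on Lrrc58. In 4 libraries under 10000 genes were detected: empty HA-positive of animals 17, 21 and 22, and g4 HA-positive of animal 18. The g4 HA-positive library of animal 19 stood apart. It held Xist, the RNA of X inactivation, at 644 CPM (counts scaled to a common library size) next to 48.0 CPM of Y-linked genes. Every other HA-positive library of animals 17 to 20 had Xist at 0. The other libraries of animal 19 had Xist at 0 and Y-linked genes at 138 to 171 CPM. All libraries of animals 21 to 23 held Xist, at 445 to 1350 CPM. Whether the g4 HA-positive library of animal 19 holds material of another animal was not tested. This library also had the highest sums of oligodendrocyte markers (1810 CPM) and microglial markers (371 CPM) of the g4 HA-positive libraries. Its sum of inhibitory neuron markers (2440 CPM) was the lowest of them. The fitted log2 changes of Lrrc58 that rest on these libraries are given with and without them.

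The level of Lrrc58 was highest in nuclei that were both Cas9-positive and from the g4 side. Levels are CPM on 1 scale over all 28 libraries, and changes are log2 fold changes ± standard error (SE) of edgeR. From animal 17 to animal 23, the g4 HA-positive libraries held 395, 340, 130, 309, 285, 295 and 298 CPM. All but that of animal 19, the lowest, lay above every other library of the study. The empty HA-positive libraries held 76.0, 109, 157, 155, 111, 90.7 and 126 CPM in the same order of animals. The empty group overlapped the g4 group only through the g4 library of animal 19, which lay below the empty libraries of animals 19 and 20. The g4 mean was 293 ± 81.2 CPM and the empty mean 118 ± 30.4 CPM (SD, n = 7). Without animal 19 the means were 320 ± 41.1 and 111 ± 27.4 CPM (SD, n = 6), and the groups then did not overlap.

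In HA-negative nuclei both vectors gave levels near that of the empty HA-positive group. With the empty vector the libraries held 97.0, 109, 103, 84.3, 78.4, 138 and 108 CPM, with a mean of 103 ± 19.5 (SD, n = 7). With the g4 vector they held 160, 62.8, 68.9, 138, 163, 73.6 and 170 CPM, with a mean of 119 ± 48.7 (SD, n = 7). The g4 libraries of animals 18, 19 and 22 lay below every empty HA-negative library and those of animals 17, 21 and 23 above every one. Their coefficient of variation was 40.8%, against 14.1% from counting error alone, and it was 27.7, 25.8 and 19% in the g4 HA-positive, empty HA-positive and empty HA-negative groups.

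The order of the mean levels was thus g4 HA-positive, g4 HA-negative, empty HA-positive and empty HA-negative. The last 3 differed from each other by less than their own SDs, and the first lay above the second by more than the larger SD of the pair. Per kilobase of transcript, Lrrc58 was at 34.1 CPM in g4 HA-positive nuclei, at the 90th percentile of 7195 genes. Such a comparison between genes takes reads to be spread along the whole transcript, which the sources used here do not state. It was at 13.9, 13.7 and 11.9 CPM per kilobase in the g4 HA-negative, empty HA-positive and empty HA-negative groups, at percentiles 73.5, 73.0 and 68.5. In sorted nuclei measured in bulk, fewer nuclei that express a gene and less RNA per nucleus cannot be told apart.

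**Figure D2:**
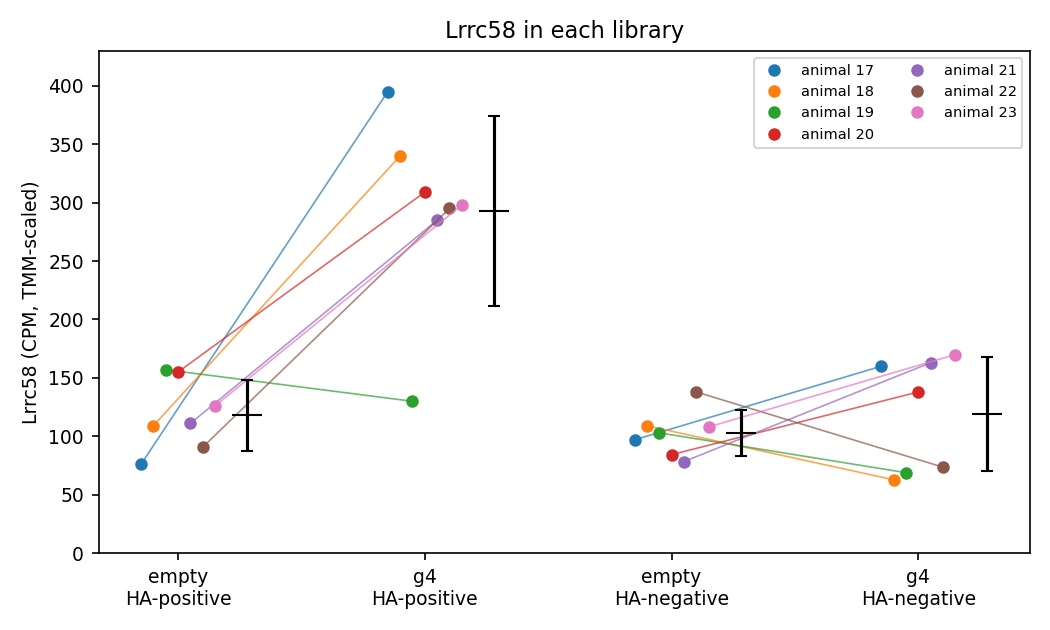
Lrrc58 level in CPM (y axis, from 0) in each of the 28 libraries by group, with a line joining the libraries of 1 animal and bars for the mean ± SD (n = 7). The g4 HA-positive libraries lie between 130 and 395 CPM and all other libraries between 62.8 and 170 CPM.

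The first comparison asked what the g4 vector did in nuclei that carried Cas9. The log2 fold change of Lrrc58 was 1.26 ± 0.21, a 2.4-fold higher level, and only 20 of 5011 genes measured (0.399%) had a larger one. By animal, from 17 to 23, the paired log2 differences were 2.32, 1.61, -0.27, 0.98, 1.33, 1.66 and 1.22. Lrrc58 was higher with g4 in 6 of 7 animals. The exception was animal 19, whose g4 library held Xist beside Y-linked transcripts. Leaving out that animal's g4 library gave 1.40 ± 0.18 and leaving out the 4 libraries of low complexity gave 1.03 ± 0.23. Of the 5011 genes, 3 were called at an adjusted p under 0.05 by edgeR (0.0599%), 1 higher (0.02%) and 2 lower (0.0399%), and Lrrc58 was the higher one, which is how it came to be chosen. Lrrc58 was called under 12 of 16 alternative settings. These refit the libraries that chose the gene, so the count shows dependence on the settings and is not a test. It was not called with the animal as a block, where 1 gene was called, without the 4 libraries of low complexity, where 0 were, without animal 18, where 1 was, or by limma voom, which called 2. The genes called lower with g4 were the noncoding RNA Oip5os1 (-0.89 ± 0.15), called under 14 of the 16 alternatives, and the synaptic vesicle gene Vamp1 (-1.11 ± 0.20), called under 10.

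The same vectors in HA-negative nuclei gave a comparison in which Lrrc58 had not been chosen. The log2 fold change was 0.22 ± 0.20, with a 95% interval from -0.17 to 0.61, and failed the edgeR test (adjusted p 0.999). The paired log2 differences from animal 17 to 23 were 0.70, -0.76, -0.55, 0.69, 1.02, -0.87 and 0.63, higher in 4 animals and lower in 3, so that the animals did not move together. An exact two-sided sign-flip permutation test over the 7 animals gave p = 0.672. In this comparison 17.4% of the 6262 genes measured had a larger change. By edgeR 0 of these genes were called (0%), with 236 at an unadjusted p under 0.05, while DESeq2 called 1 and limma voom 0.

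HA-positive nuclei were then set against HA-negative nuclei. With the vectors averaged, Lrrc58 was higher in HA-positive nuclei by 0.77 ± 0.15 on the log2 scale, a 1.7-fold difference. Without the g4 library of animal 19 it was 0.84 ± 0.14, and without the 4 libraries of low complexity 0.83 ± 0.18. The 7 animals gave log2 differences of 0.47, 1.18, 0.74, 0.99, 0.64, 0.68 and 0.50, from 17 to 23. All 7 were above 0. Of 7197 genes, 984 were called (13.7%), 477 of them higher in HA-positive nuclei (6.63%), and 4.42% had a larger difference than Lrrc58.

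This average drew on the g4 HA-positive libraries for which Lrrc58 was chosen, so it is a description without a test, and most of it came from the g4 side. With g4 the difference between fractions was 1.29 ± 0.27, with 7 of 7 animals higher in HA-positive nuclei (1.43 ± 0.20 without the g4 library of animal 19 and 1.23 ± 0.30 without the HA-positive one of animal 18). With the empty vector it was 0.26 ± 0.20, with a 95% interval from -0.14 to 0.65, 4 animals higher and 3 lower. The empty value became 0.43 without the empty HA-positive libraries of low complexity. The difference between the vector effects of the fractions was 1.05 ± 0.30. It was 1.18 ± 0.28 without the g4 library of animal 19 and 0.81 ± 0.35 without the libraries of low complexity. By animal, from 17 to 23, it was 1.62, 2.37, 0.28, 0.30, 0.31, 2.54 and 0.59. It was above 0 in every animal, and larger in animals 17, 18 and 22 than in the other 4. It contains the contrast Lrrc58 was chosen for, so no test is given.

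**Figure D3:**
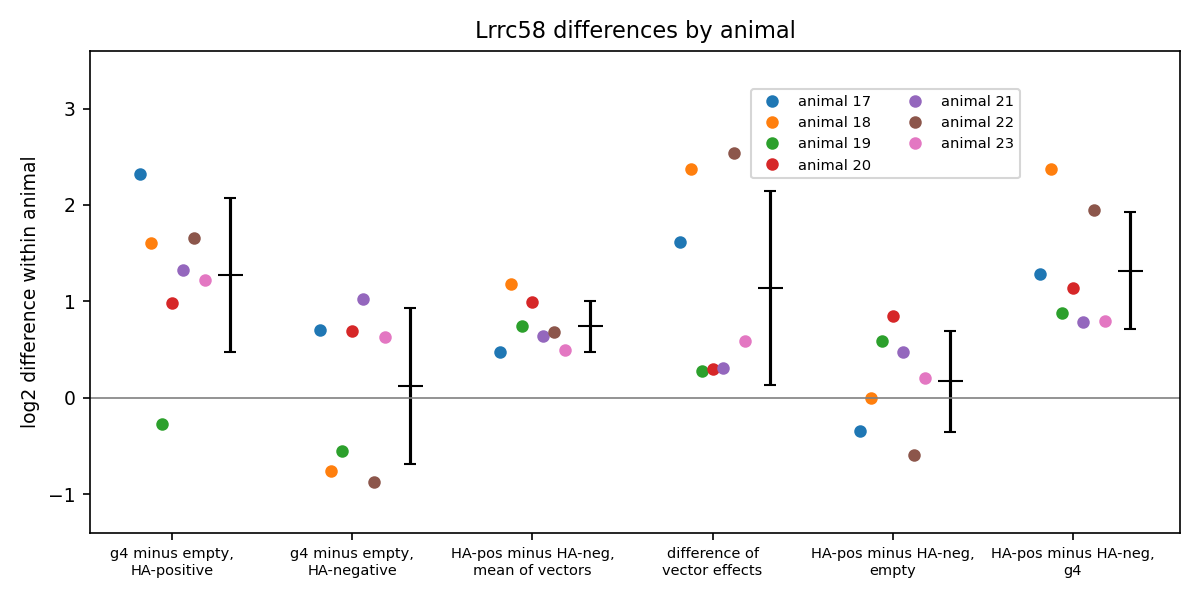
Log2 differences of Lrrc58 within each animal (y axis; 1 point per animal) in the comparisons of vectors and of fractions, with bars for the mean ± SD over the 7 animals. With g4 against empty, 6 of 7 animals lie above 0 in HA-positive nuclei and 4 of 7 in HA-negative nuclei.

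Markers of cell types differed between the fractions. The sum over 16 inhibitory neuron markers had medians of 3950 and 3590 CPM in empty and g4 HA-positive libraries, against 1480 and 1390 CPM in the HA-negative ones, and the ranges of the fractions did not overlap. Gad1, which makes the transmitter GABA, was higher in HA-positive nuclei by 1.74 ± 0.14 and Pvalb, a calcium-binding protein of fast-spiking interneurons, by 2.55 ± 0.30 on the log2 scale. In all, 14 of 16 tested markers of inhibitory neurons were called higher by edgeR, against 6.63% of all genes called higher and 7.04% called lower. The oligodendrocyte sum had medians of 380 and 234 CPM in empty and g4 HA-positive libraries against 1950 and 1720 CPM in HA-negative ones, with 9 of 10 tested markers called lower, among them the myelin gene Mbp (-1.64 ± 0.16). The excitatory neuron sum was closer, with medians of 1820 and 1890 against 2300 and 2470 CPM, and the difference of the glutamate transporter gene Slc17a7 was -0.42 ± 0.15 (adjusted p 0.0622 by edgeR, and 0.0214 without animal 21). Microglial markers had medians of 18.5 and 33.5 CPM in HA-positive and 387 and 539 CPM in HA-negative libraries, with Cx3cr1, P2ry12, C1qa, C1qc and Gpr34 at 0 in all empty HA-positive libraries. By edgeR 4 of 4 tested markers of oligodendrocyte precursors and 7 of 7 of microglia were called lower in HA-positive nuclei, 2 of 8 of astrocytes were called lower and 0 higher, and of 15 for excitatory neurons 1 was called higher and 5 lower. The part of this cell makeup in the Lrrc58 difference between fractions was not tested.

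Between the vectors in HA-positive nuclei the marker sums overlapped. Inhibitory sums ran from 3500 to 5040 CPM with the empty and from 2440 to 4620 CPM with the g4 vector, and excitatory sums from 985 to 2170 and from 1550 to 2340 CPM. Single markers leaned in opposite directions. Of 15 tested inhibitory markers 4 were higher and 11 lower with g4, with a median log2 change of -0.24. Of 13 excitatory markers 10 were higher and 3 lower, with a median of 0.26. Of either list 0 markers were called, where 0.0599% of all genes were called. The astrocyte sums went from a range of 681 to 1500 (median 823) to one of 1080 to 2770 CPM (median 1450), with 6 of 6 tested markers higher, 0 called and a median log2 change of 0.63. Oligodendrocyte sums ran from 230 to 551 and from 168 to 1810 CPM, and the highest value was that of animal 19. Precursor sums ran from 30.3 to 129 and from 57.2 to 216 CPM (medians 83.1 and 124), and microglial sums from 6.61 to 43.1 and from 2.55 to 371 CPM (medians 18.5 and 33.5). The part of these shifts in the Lrrc58 values was not tested. The endothelial sums were at most 34 CPM in any library, with 0 markers tested.

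The targeted microRNA itself is too short for such libraries and was not analysed here, but its locus was. Mir124a-2, one of the miR-124 hairpin genes, had 0, 1, 4, 30, 17, 2 and 3 counts in the g4 HA-positive libraries of animals 17 to 23 and 0 in all others. The animals with the most hairpin counts, 20 and 21, had Lrrc58 at 309 and 285 CPM, and animal 17, with 0 hairpin counts, had the highest level at 395 CPM. The host transcript Mir124-2hg was at 76.7 ± 49.2 CPM in empty and 127 ± 30.3 CPM in g4 HA-positive libraries, and in HA-negative libraries at 36.7 ± 21.7 CPM with the empty and 41.3 ± 9.64 CPM with the g4 vector (SD, n = 7).

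Other genes with many seed matches were set beside Lrrc58. Besides it, 6 genes held an 8mer and at least 5 matches, of which 4 had enough counts to be measured in HA-positive nuclei. Of these, 3 were higher and 1 lower with g4, 0 were called (against 0.0599% of all genes measured), and the median log2 change was 0.10, against -0.01 over the 4826 other genes with a 3' UTR (0.07 without the g4 library of animal 19, 0.18 without the libraries of low complexity). The 3' UTRs of these genes differed in length, beside 7396 bases for Lrrc58. D10Wsu102e, with 10 matches in an annotated 3' UTR of 122583 bases, went from 166 ± 58.0 to 199 ± 29.1 CPM (0.20 ± 0.19). Zbtb20, a zinc finger repressor with 6 matches in 23858 bases, went from 96.7 ± 29.6 to 141 ± 70.4 CPM (0.50 ± 0.26). Narf, with 5 in 2934 bases, went from 29.3 ± 14.1 to 19.0 ± 11.2 CPM (-0.66 ± 0.48). Plekhm3, also with 5, in 5916 bases, went from 61.0 ± 8.88 to 63.7 ± 12.9 CPM (0.01 ± 0.26; all SD, n = 7). The highest of the 4 was thus 0.50, beside 1.26 for Lrrc58, which was chosen for its change here. Kcnk9, a potassium channel gene named after its values were seen, held 6 matches but no 8mer in 11030 bases of 3' UTR. It went from 36.5 ± 22.3 to 63.3 ± 15.4 CPM (SD, n = 7; 0.72 ± 0.39), higher in 4 of 7 animals. In HA-negative nuclei 5 genes of the list were measured with a median of 0.09. Between the fractions Zbtb20 ran opposite to Lrrc58, lower in HA-positive nuclei by -1.25 ± 0.15 (adjusted p 2.06e-08 by edgeR).

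Less strict groups of matches gave more genes. In HA-positive nuclei the 167 genes with at least 1 8mer had a median log2 change of 0.16, with 114 higher and 53 lower with g4 and 1 gene besides Lrrc58 with a larger change. The 3463 genes without a match had a median of -0.04. These groups were not matched for 3' UTR length. An 8mer was held by 12.5% of the genes with at least 7000 bases, against 2.7% of all. In HA-negative nuclei, 222 genes with an 8mer had a median of 0.04. Lrrc58 was chosen for its change in HA-positive nuclei, so its place at the upper end of the 8mer genes there follows from the choice. In HA-negative nuclei its change was 0.22, and 48 of the 222 genes with an 8mer had a larger one.

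**Figure D4:**
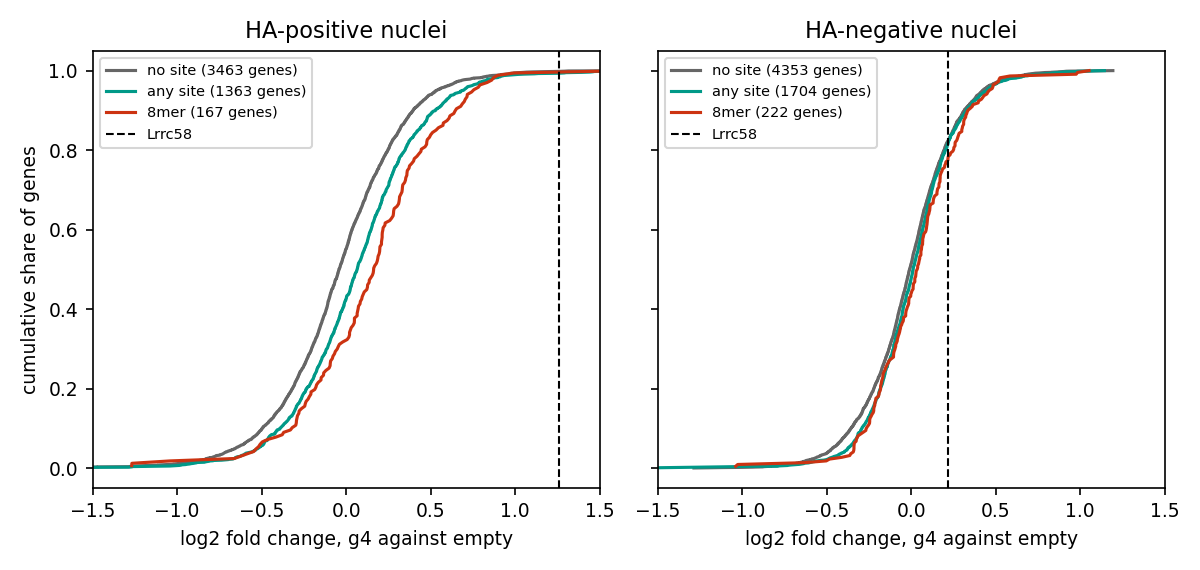
Cumulative share of genes (y axis, 0 to 1) against the log2 change with g4 (x axis) for genes without a miR-124 match, with any match and with an 8mer, in HA-positive and HA-negative nuclei, with a dashed line for Lrrc58. In HA-positive nuclei the medians are -0.04 without a match and 0.16 with an 8mer, and Lrrc58 is at 1.26. The groups are not matched for 3' UTR length.

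Genes of the cullin-5 ligase and of cysteine metabolism, the pathway in which LRRC58 has been placed, were split in direction between the vectors. The list held 20 genes, of which 9 were measured between the vectors in HA-positive nuclei. With g4, 5 were higher and 4 lower, and 0 were called, where 0.0599% of all genes were called. The median log2 change was 0.01, against -0.01 over all genes. Without the libraries of low complexity the list had a median of -0.23. The scaffold Cul5 was at 58.9 ± 30.6 CPM with the empty and 66.4 ± 19.4 CPM with the g4 vector (0.12 ± 0.32). The RING subunit gene Rnf7 was at 25.7 ± 22.9 and 29.4 ± 14.6 CPM, and the adaptor gene Elob at 33.0 ± 24.6 and 34.5 ± 13.4 CPM. Its partner Eloc had the lowest value of the list, from 45.6 ± 19.2 to 29.8 ± 8.48 CPM (-0.69 ± 0.39, adjusted p 0.754 by edgeR). Cdo1, the gene of cysteine dioxygenase, was at 3.81 ± 3.22 and 6.53 ± 7.64 CPM (SD, n = 7), below the filter on low counts, so that it is given by its level alone. These values concern messengers, and protein levels were not analysed here.

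In HA-negative nuclei 12 genes of the list were measured between the vectors, with 5 higher, 7 lower and a median of -0.07. Of them 0 were called, as over all genes (0%). Between the fractions, averaged over the vectors, 13 were measured with a median of 0.00: 1 was called higher and 1 lower, against 6.63 and 7.04% of all genes. Got1, a transaminase that also acts on cysteine sulfinate, was higher in HA-positive nuclei by 0.64 ± 0.12 (adjusted p 5.22e-05 by edgeR). Ado, a dioxygenase of cysteamine and of N-terminal cysteines, was lower by -0.79 ± 0.22 (adjusted p 0.00756 by edgeR), and without the libraries of animal 23 it was at -0.67 with an adjusted p of 0.0644 by edgeR. With the empty vector alone, 11 of the list were measured, with 1 called higher and 0 lower in HA-positive nuclei, where 388 of 5538 genes were called (7.01%), 3.5% higher and 3.5% lower. With g4, 12 were measured, with 1 called higher and 0 lower, where 401 of 6264 genes were called (6.4%), 3.32% higher and 3.08% lower.

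Most genes that lie beside Lrrc58 on chromosome 16 carried too few counts to be measured. Of the 5 nearest protein-coding genes on each side, 2 were measured between the vectors, with log2 changes of -0.24 and 0.20 in HA-positive nuclei. Neither was called, where 0.0599% of all genes were called. Fstl1, whose nearest end lies 31874 bases before Lrrc58, had 6.75 ± 5.42 and 13.7 ± 14.2 CPM in empty and g4 HA-positive libraries (SD, n = 7). It was below the filter on low counts.

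Reads of other genes could be counted to Lrrc58 or the reverse. The processed pseudogene Gm15725 lies on the same strand inside the last exon, from 37882542 to 37883631, and has no entry in the count tables. Of the 8555 stretches of 50 bases in the Lrrc58 transcript, 1174 occur in transcripts of other genes. Of these, 1041 occur in Gm15725, which covers the same bases of the genome and is not a second place in it. Actb, the gene of beta-actin, holds 179. How the authors' counting treated such reads is not given in the sources used here. Actb, chosen after this comparison of sequences, was at 804 ± 115 and 735 ± 130 CPM in empty and g4 HA-positive libraries (-0.19 ± 0.12) and at 1100 ± 124 and 1030 ± 122 CPM in the HA-negative ones (SD, n = 7; -0.10 ± 0.09). Actb holds only 179 of the 1174 shared stretches, and the part of shared reads in the Lrrc58 values was not tested.

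The genes whose pattern was most like that of Lrrc58 were ranked by Pearson's r of log2 CPM over the 28 libraries. The libraries share animals, sorting and depth, so r is a description. Over 7196 genes the median r was 0.03. The 6 highest were Vat1 (0.78), a vesicle membrane protein, Map2k4 (0.77), a kinase upstream of JNK, Kcnq3 (0.76), a potassium channel subunit, the receptor Ntrk2 (0.72), the transcription factor Tcf4 (0.72) and the F-box protein Fbxl17 (0.71). With the group means taken off, r was 0.40, 0.59, 0.37, 0.45, 0.33 and 0.65 in the same order, and of these genes only Fbxl17 stayed among the 6 highest, as the first. The likeness of each of the 6 was thus lower once differences between the groups were taken off.

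These genes had in common that g4 HA-positive libraries were high, as in Lrrc58. Vat1 went from 25.6 ± 13.0 CPM in empty to 84.8 ± 41.4 CPM in g4 HA-positive libraries (1.67 ± 0.38), and it was the gene with an 8mer and a larger change than Lrrc58. Its libraries ran from 9.92 to 39.5 CPM with the empty and from 31.6 to 135 CPM with the g4 vector, with animal 19 lowest in the g4 group as for Lrrc58. Kcnq3 went from 347 ± 62.8 to 532 ± 48.3 CPM (0.56 ± 0.13), from 263 to 452 CPM with the empty and from 459 to 607 CPM with the g4 vector, without overlap and higher in 7 of 7 animals. Since these genes were picked for their likeness to Lrrc58 on the same libraries, a difference in its direction follows from the choice and no test is given. Map2k4 went from 133 ± 28.7 to 186 ± 37.6 CPM (0.44 ± 0.19) and Tcf4 from 431 ± 80.6 to 579 ± 93.5 CPM (0.37 ± 0.14; all SD, n = 7). Ntrk2 went from 457 ± 36.6 to 517 ± 53.6 CPM and Fbxl17 from 37.5 ± 14.8 to 58.7 ± 19.5 CPM.

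Sequence had no part in this ranking, but the ranking drew on the g4 HA-positive libraries for which Lrrc58 was chosen. Of the 6 genes 5 held at least 1 miR-124 match, all but Ntrk2, and Vat1 held an 8mer. The share changed with the measure of likeness: 4 of the first 6 by Spearman's rho held a match, and 1 of the first 6 with the group means taken off. Without the g4 library of animal 19, 5 of the 6 genes stayed among the first 6. Among all 6922 genes measured over the 28 libraries that have a 3' UTR, 27.6% held a match. The 3' UTRs of the 6 genes ran from 1448 to 8784 bases, against a median of 964 over all genes with one. Since length raises the number of matches, the shares are a description. Between the fractions with the vectors averaged, all 6 had values above 0, from 0.23 ± 0.08 for Ntrk2 to 1.90 ± 0.29 for Vat1.

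**Figure D5:**
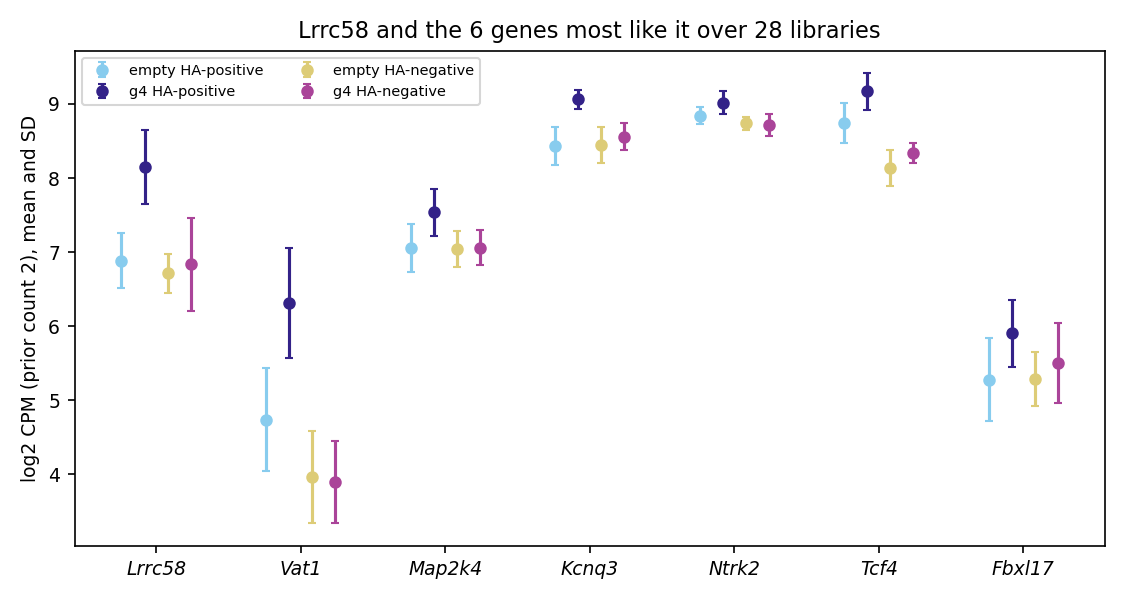
Level of Lrrc58 and the 6 genes most like it, as log2 CPM (y axis, prior count 2), with points for the mean of each of the 4 groups and bars for the SD over 7 libraries. The g4 HA-positive mean is the highest of the 4 for each gene.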

How the data were processed

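RNA of HA-sorted nuclei was measured in 28 libraries from 7 mice, each prepared from 40 to 2000 pg of RNA with a QIAseq FastSelect kit, per the labels' protocols. The authors deposited raw counts per gene in a table for each fraction, per the labels, and the build is GRCm38, per the submitters' processing notes. How reads were aligned and counted, on which strand, and whether molecular identifiers served, is not given in the sources used here, so counting error is a lower bound of the technical error. Cells without a value were read as 0, 1 of 41550 entries, which named no gene, was dropped, and 0 sample columns were unused. Of 41549 genes, 41474 matched GENCODE M21 (GRCm38), which gave positions and 3' UTRs, and the longest annotated 3' UTR of a gene was searched for seed matches.

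Groups and animal numbers came from the sample titles. For 3 animals the column name held another number, and the sample descriptions tied the columns to the samples. The animals pair the libraries, since both vectors and both fractions come from each animal. Deviations from the group means correlated by 0.00 to 0.13 between same-numbered HA-negative libraries and by -0.05 to 0.05 between HA-positive ones. The 7 libraries of a group come from separate animals, so the edgeR fits measure the spread between animals within a group. Outside the block alternative they held no term for the animal and took the libraries of an animal as independent. In the fit of all 28 libraries each animal thus counts more than once. Only the sign-flip test takes the animal as its unit.

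CPM were computed on 1 TMM scale over all libraries. Genes were tested with edgeR 4.0.16 (quasi-likelihood, robust, filterByExpr by group, TMM, two-sided) in R 4.3.3 on the whole table, and called where the p adjusted by Benjamini-Hochberg was under 0.05. The vectors were compared on the 14 libraries of a fraction and the fractions on the 14 of a vector, while the mean over vectors and the difference of effects used all 28. Lrrc58 itself was tested only between vectors in HA-negative nuclei, with an exact sign-flip permutation test on the paired log2 CPM (prior count 2) beside edgeR. A test between fractions with the vectors averaged was planned and is not given, since it draws on the libraries that chose the gene. Alternatives were DESeq2 1.42.0, limma 3.58.1 voom, other scalings and filters, the animal as a block, and leaving out animals or libraries. Protein-coding counts as the library size, and the ranking by likeness without 1 library, were added after seeing the data. On counts simulated from these libraries, edgeR recovered 48.6% of 2-fold changes between vectors in HA-positive nuclei (4752 genes), 67.8% in HA-negative nuclei (5952 genes) and 74.9% between fractions (6962 genes).

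Lrrc58, the gene lists (seed matches, cullin-5 and cysteine genes, neighbours, cell type markers) and the tests were chosen with earlier results of these data known. Named from the lists were the subunits Cul5, Rnf7, Elob and Eloc with Cdo1, the nearest neighbours with counts, the tested genes with the most seed matches, the 6 genes most like Lrrc58 by Pearson's r, example markers and any member called. A gene that this rule names is not reported here.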

Additional observations from a re-analysis of the deposited data

Results flagged for a closer look

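In 50 groups of 7 values for the named genes, 3 libraries lay far from the other 6 of their group, judged by the gap to the nearest value over 0.568 of the whole range. Chance gives about 1 in 20 groups. In the g4 HA-positive group, Lrrc58 in animal 19 was at 130 CPM, with the other 6 between 285 and 395 CPM. This is the library that held Xist beside Y-linked transcripts and the highest sums of oligodendrocyte and microglial markers of its group, and the part of these in its Lrrc58 level was not tested. D10Wsu102e, the gene with the most seed matches, in a 3' UTR of 122583 bases, was at 138 CPM in animal 18 of the same group, with the others between 189 and 220 CPM. That library was one of the 4 with few genes detected. Plekhm3 was at 92.5 CPM in the empty HA-negative library of animal 19, with the others between 49.6 and 60.6 CPM.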

How the results depend on the processing

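For Lrrc58 the direction held in all 6 comparisons under every alternative run, and the test in HA-negative nuclei kept its side of the threshold. With g4 against empty in HA-positive nuclei its log2 change ran from 1.03 to 1.48, in HA-negative nuclei from 0.06 to 0.40, and between the fractions with the vectors averaged from 0.71 to 0.84. With the animal as a replicate block it was 1.23 ± 0.23, 0.16 ± 0.22 (adjusted p 0.998 by edgeR) and 0.78 ± 0.16, 1.06 ± 0.31 for the difference of effects, and 0.24 ± 0.22 and 1.31 ± 0.18 between the fractions with the empty and the g4 vector. Apart from the call that chose Lrrc58 and that of Vamp1, the block changed no call of a gene named here.

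Counts of called genes moved more. In HA-positive nuclei the 3 genes called between vectors became 11 by DESeq2, 28 without the filter on low counts, 8 with all 28 libraries in 1 model, 1 with the animal as a block, 5 without the g4 library of animal 19, 0 without the libraries of low complexity, and 1 to 4 without each animal in turn. In HA-negative nuclei DESeq2 called 1 in place of 0. Without the filter, 1584 in place of 984 genes were called between the averaged fractions, 661 in place of 388 with the empty vector and 3 in place of 0 for the difference of effects. With the empty vector the count was 612 with all libraries in 1 model and 251 to 371 without each animal, lowest without animal 19. With g4 the 401 calls became 259 by library totals alone and 218 to 422 without each animal, lowest without animals 20, 21 and 22. The median of the neighbours in the difference of effects, -0.14, ran from -0.65 (without animal 23) to 0.14 without each animal in turn, and up to 0.28 over all alternatives. Ranked by Spearman's rho, 3 of the 6 genes most like Lrrc58 stayed among the first 6. The causes were not tested. A comparison with proteins most like LRRC58 was not run. Over the libraries of a group, counting error was 8.3 to 15.2% of the level of Lrrc58, and genes at the level of Cdo1 fell below the filter on low counts.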
